A study of Saccharomyces cerevisiae with 7 samples.

Results

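The genes described here are 10 genes of inositol and phospholipid synthesis in Saccharomyces cerevisiae, INO1, ITR1, ITR2, CHO1, CHO2, OPI3, PSD1, INO2, INO4 and OPI1. They are a list of gene names, matched to the annotation of the array, that was drawn up with earlier results of these data known. Each of the 10 had 1 probe set annotated to that gene alone, out of 5656 genes measured in this way, and all 10 lay above the floor of 12 intensity units on enough arrays to be tested. Transcripts were read on 7 one-colour Affymetrix yeast arrays, hybridised with biotin-labelled cRNA from chemostat cultures of the laboratory strain CEN.PK113-7D. A chemostat is a continuous culture in which the feed of 1 limiting nutrient sets the growth rate. Air was supplied to every culture, glucose at 7.5 g/l was the limiting nutrient, and temperature, pH and dilution rate were held at 30 °C, 3.5 and 0.1 per h. The galacturonic acid group (2 arrays) was also fed galacturonic acid at 10 g/l. Galacturonic acid is the chief building block of pectin. The galactose group (2 arrays) received 0.23 g/l galactose, and the control group (3 arrays) received glucose alone. One label field of the galactose samples names galacturonic acid at that dose, whereas their title, description and treatment name galactose, which was used. Nothing in the labels says how the arrays of a group relate beyond their different culture codes, so p-values measure only the spread between these arrays.

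Myo-inositol is the head group of phosphatidylinositol, and yeast either makes it from glucose 6-phosphate or imports it. Phosphatidylserine, phosphatidylethanolamine and phosphatidylcholine are made in turn from CDP-diacylglycerol. Most genes of both routes carry an inositol-sensitive promoter element, which the heterodimer of the basic helix-loop-helix proteins Ino2 and Ino4 activates. Opi1 represses them when inositol is plentiful, because it leaves its anchor of phosphatidic acid in the endoplasmic reticulum and enters the nucleus. The defined medium named in the labels contains myo-inositol in its vitamin mix.

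The galactose arrays stood apart from the other 5 in RNA quality, by ACT1 on both and by SPT15 on array 2 alone. They also differed more from each other than the arrays of the other groups did. The ratio of 3' to 5' signal for ACT1 (actin) was 1.07 to 1.34 on the galacturonic acid and control arrays, against 19.8 on galactose array 1 and 306 on galactose array 2. The same ratio for SPT15 (TATA-binding protein) was 1.66 to 2.75 on those 5 arrays, against 2.76 and 124 on the galactose arrays. The 5' signals behind 306 and 124 lay below the floor, at 10.5 and 4.1, which leaves the size of both ratios uncertain. Over the 10 genes the median SD on the log2 scale was 0.22 between galacturonic acid arrays, 0.67 between galactose arrays and 0.42 between control arrays, against 0.17, 0.52 and 0.30 over the 5220 genes tested. The galactose samples also carry codes with another prefix (MA) than the galacturonic acid and control samples (EH). The labels do not say what the prefix means, and it cannot be told apart from the galactose group.

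**Figure D1:**
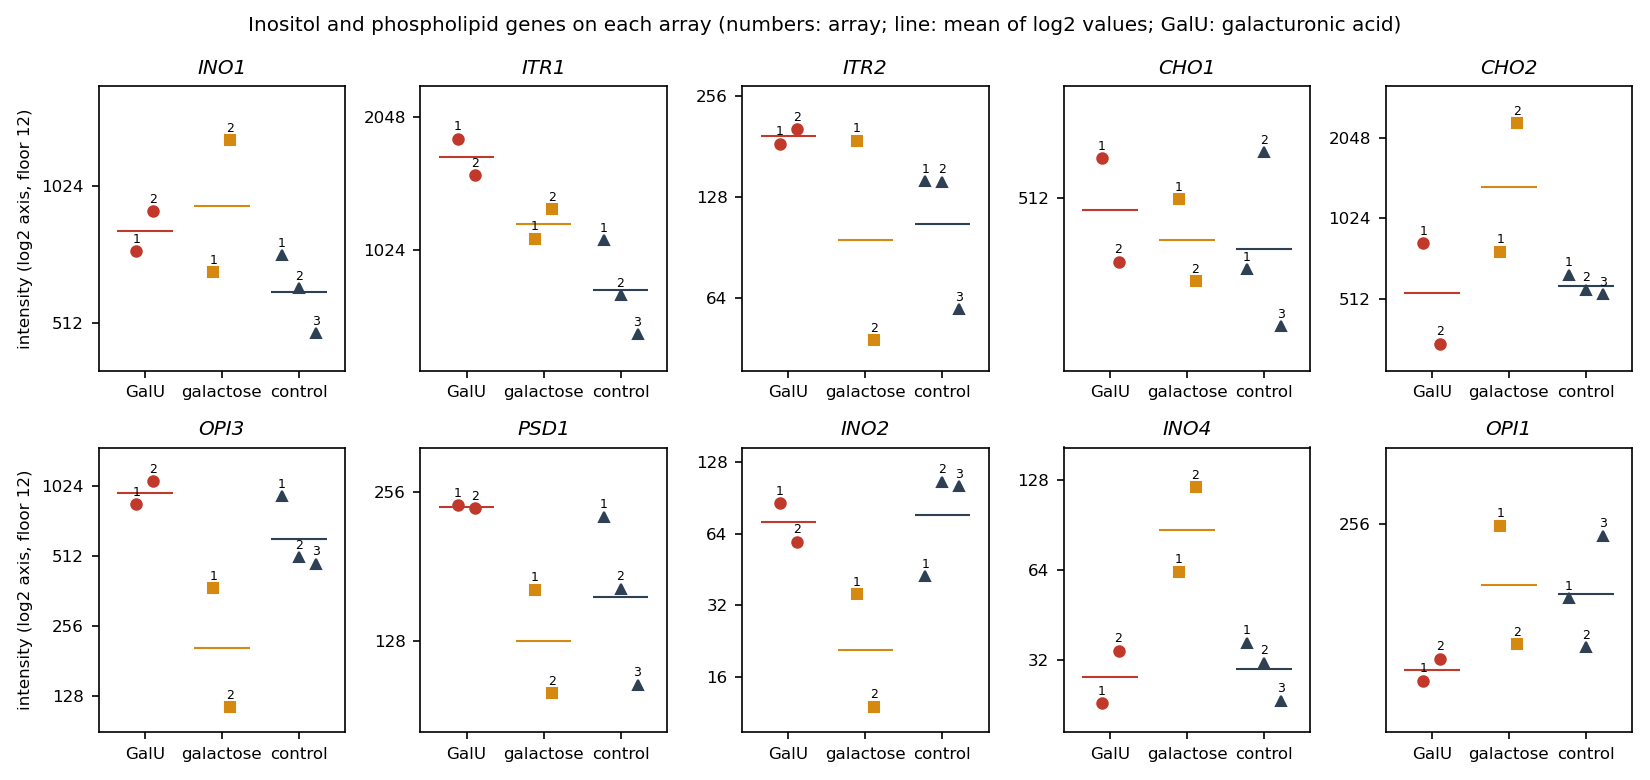
Intensity of each of the 10 genes on each array (log2 axis, values raised to the floor of 12), with array numbers beside the points and a line at the mean of the log2 values of a group. ITR1 is above all control arrays on both galacturonic acid arrays, at 1829 and 1509, and the galactose arrays lie far apart for CHO2, OPI3 and INO2.

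With galacturonic acid no member of the group passed the threshold against control. By limma with Benjamini-Hochberg adjustment over 5220 genes, 0 of 10 were called at an adjusted p under 0.05, where the background over all genes tested was 2.32%. At an unadjusted p under 0.05, 1 of 10 passed (ITR1), against 12.5% of all genes tested. The median log2 difference over the 10 genes was 0.33, against -0.01 over all genes tested, with 6 genes above 0 and 4 below. The galacturonic acid and control arrays did not overlap for 5 of 10 genes, 4 higher and 1 lower, which is near the 41.1% of all genes tested. A lower or higher reading in part of the cells cannot be told apart from the same change in every cell.

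The 2 inositol transporter genes had the largest positive differences of the 10, and INO1, a gene of inositol synthesis, had a smaller one. ITR1 (YDR497C), the major myo-inositol transporter of the plasma membrane, read 1829 and 1509 on the galacturonic acid arrays, 1084 and 1264 on the galactose arrays, and 1075, 807 and 658 on the control arrays. Both galacturonic acid arrays were above every other array. Its mean was 1669 ± 226 (SD, n = 2) with galacturonic acid against 847 ± 211 (SD, n = 3) in control, a log2 difference of 1.00 ± 0.31 (SE, 95% interval 0.29 to 1.71, limma adjusted p = 0.199). The difference was 0.84 to 1.19 over 18 alternative settings. It passed under 1 of them, array weights (limma adjusted p = 0.00741), and not under the other 17.

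ITR2 (YOL103W), the minor paralog of that transporter, read 185 and 204 with galacturonic acid, 189 and 47.9 with galactose, and 143, 142 and 59.2 in control. The galacturonic acid arrays did not overlap with control, and the log2 difference was 0.87 (95% interval -0.55 to 2.29, limma adjusted p = 0.637). Whether the probe set of either paralog also reads the other was not tested. INO1 (YJL153C), the inositol-3-phosphate synthase of inositol synthesis, read 736 and 902 with galacturonic acid, 664 and 1289 with galactose, and 723, 612 and 487 in control. The galacturonic acid arrays lay just above the highest control array. Its log2 difference was 0.44 (95% interval -0.39 to 1.28, limma adjusted p = 0.704).

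In the route from phosphatidylserine to phosphatidylcholine the differences with galacturonic acid lay between -0.09 and 0.66. CHO1 (YER026C), the phosphatidylserine synthase, read 597 and 400.3 with galacturonic acid, 509 and 372 with galactose, and 389, 610.3 and 312 in control. The 3 groups overlapped throughout. PSD1 (YNL169C), the mitochondrial phosphatidylserine decarboxylase, read 242 and 238 with galacturonic acid, 163 and 101 with galactose, and 229, 164 and 105 in control. Its galacturonic acid arrays agreed closely and lay slightly above control array 1, and the log2 difference was 0.60 (95% interval -0.33 to 1.54, limma adjusted p = 0.613).

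CHO2 (YGR157W), which carries out the methylation of phosphatidylethanolamine, read 828 and 349 with galacturonic acid, 768 and 2320.3 with galactose, and 631, 554 and 534 in control. The galacturonic acid arrays lay on either side of the control arrays and differed from each other 2.38-fold, the widest gap of the 10 genes in that group. Without galacturonic acid array 1 or array 2 the CHO2 difference from control was -0.71 or 0.54, so its direction was not fixed. OPI3 (YJR073C), the methyltransferase of the later steps to phosphatidylcholine, read 859 and 1076 with galacturonic acid, 373 and 114 with galactose, and 931, 505 and 474 in control. Control array 1 lay between the galacturonic acid arrays, and the log2 difference was 0.66 (95% interval -0.54 to 1.87, limma adjusted p = 0.688).

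The 3 regulators had differences with galacturonic acid below 0, but those of INO2 and INO4 turned above 0 when 1 array was left out (up to 0.16 and 0.20), so they had no fixed direction. INO2 (YDR123C), the activator subunit whose own level is under inositol control, read 85.9 and 59.2 with galacturonic acid, 35.7 and 0.3 with galactose, and 42.3, 106 and 101 in control. INO4 (YOL108C), its partner subunit, read 22.9 and 34.4 with galacturonic acid, 63.2 and 121 with galactose, and 36.6, 31.4 and 23.4 in control. For both genes the galacturonic acid and control arrays overlapped, and log2 differences were -0.11 for INO2 and -0.09 for INO4 with 95% intervals of -1.42 to 1.21 and -0.996 to 0.81. OPI1 (YHL020C), the repressor, read 156 and 167 with galacturonic acid, 255 and 175 with galactose, and 203, 174 and 247 in control. It was the 1 member whose galacturonic acid arrays lay below all control arrays, by a log2 difference of -0.35 (95% interval -1.09 to 0.39, limma adjusted p = 0.748).

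**Figure D2:**
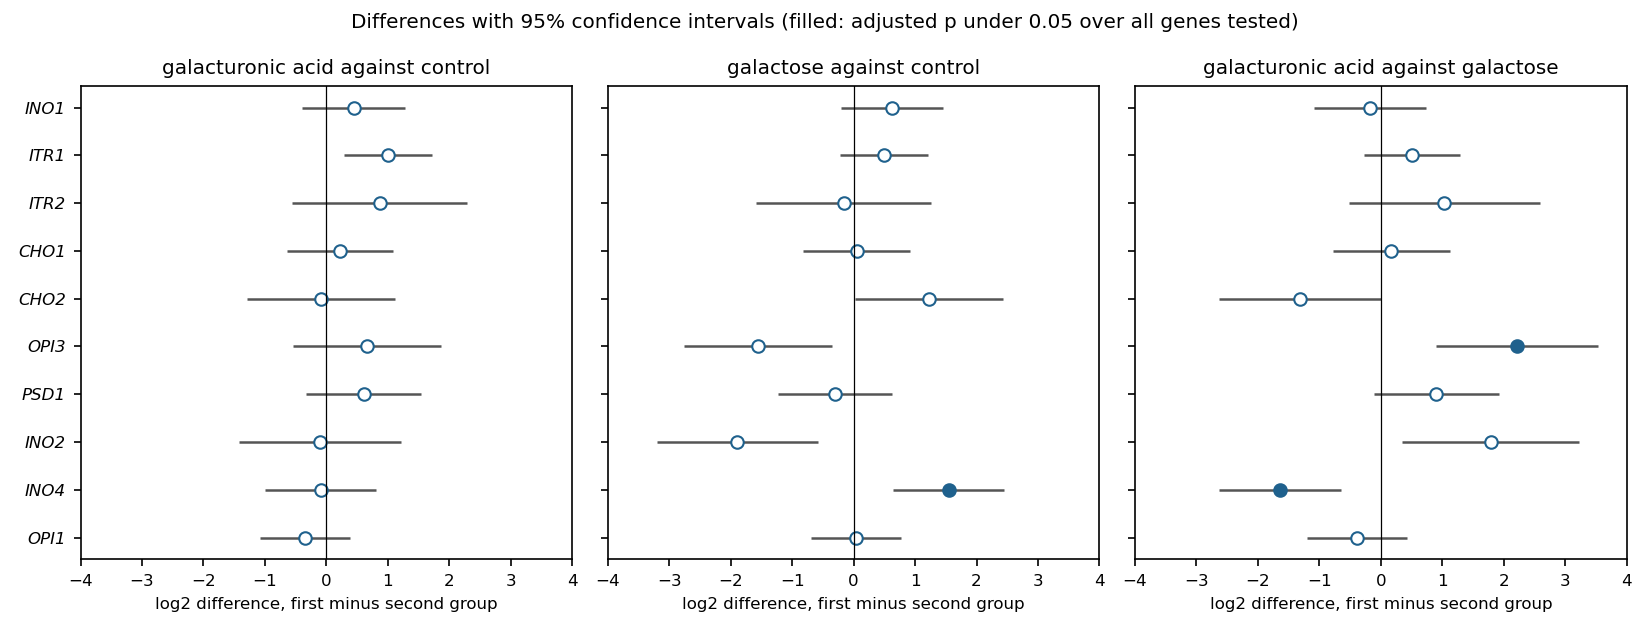
Log2 difference of each of the 10 genes in the 3 comparisons (points) with 95% confidence intervals from limma (lines), where filled points passed an adjusted p under 0.05. No point is filled for galacturonic acid against control, INO4 is filled for galactose against control (1.55), and OPI3 (2.22) and INO4 (-1.64) are filled for galacturonic acid against galactose.

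With galactose 1 of 10 genes passed against control, where 9.06% of all genes tested passed. At an unadjusted p under 0.05 it was 4 of 10 against 34.7%, and both shares were near the background. INO4 rose, with a mean of 92.3 ± 41.1 (SD, n = 2) with galactose against 30.5 ± 6.65 (SD, n = 3) in control, a log2 difference of 1.55 ± 0.39 (SE, limma adjusted p = 0.0472). Both galactose arrays were above all control arrays. The size depends on the floor, because the control arrays read only 23.4 to 36.6, and was 0.81 with the highest floor tried. The call was lost under 13 of the 17 alternatives in which INO4 was tested, including every one that left out an array other than galactose array 1. Without galactose array 2, the array with the higher 3'/5' ratios, the difference was 1.08 with an adjusted p of 0.138.

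INO2, the partner of INO4, had the opposite sign with galactose. Its log2 difference was -1.89 (95% interval -3.21 to -0.58, limma adjusted p = 0.0699), and galactose array 2 read it below the floor. The size therefore depends on the floor, at -3.68 with a floor of 1 and -0.70 with a floor of 50. It passed after quantile normalisation, with a difference of -2.10 (adjusted p = 0.0469). OPI3 differed by -1.56 (95% interval -2.76 to -0.35, adjusted p = 0.0871) and CHO2, the enzyme one step before it, by 1.22 (95% interval 0.03 to 2.42, adjusted p = 0.138). Both galactose arrays lay outside the control range for INO2, OPI3, CHO2, INO4 and ITR1, so that 5 of 10 genes did not overlap, against 47.8% of all genes tested.

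For the other genes the galactose differences did not pass, and their 95% intervals held both signs. INO1 was at 0.63 and ITR1 at 0.50, with 95% intervals of -0.21 to 1.46 and -0.21 to 1.21. PSD1 was at -0.30, ITR2 at -0.16, CHO1 at 0.05 and OPI1 at 0.04, and the smallest adjusted p of these 6 was 0.252, for INO1. The median of all genes tested was itself at 0.22 in this comparison, and scaling to the 75th percentile brought it to 0.04. CHO1 and OPI1 were at -0.14 and -0.15 under that scaling, so they had no fixed direction.

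The 2 galactose arrays differed most in the sizes of these shifts. Against the mean of the control arrays, galactose array 1 shifted 2 of 10 genes by over 1 log2 unit, near the 20.9% of all genes tested. Galactose array 2 shifted 6 of 10 by that much, against 44.5% of all genes tested. On galactose array 2 the shifts were 2.02 for CHO2, 2.02 for INO4, 1.10 for INO1, -1.15 for ITR2, -2.41 for OPI3 and -2.68 for INO2. On galactose array 1 the same genes were at 0.43, 1.08, 0.15, 0.83, -0.70 and -1.10, so ITR2 had opposite signs on the 2 arrays. The part that RNA quality has in these values was not tested.

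**Figure D3:**
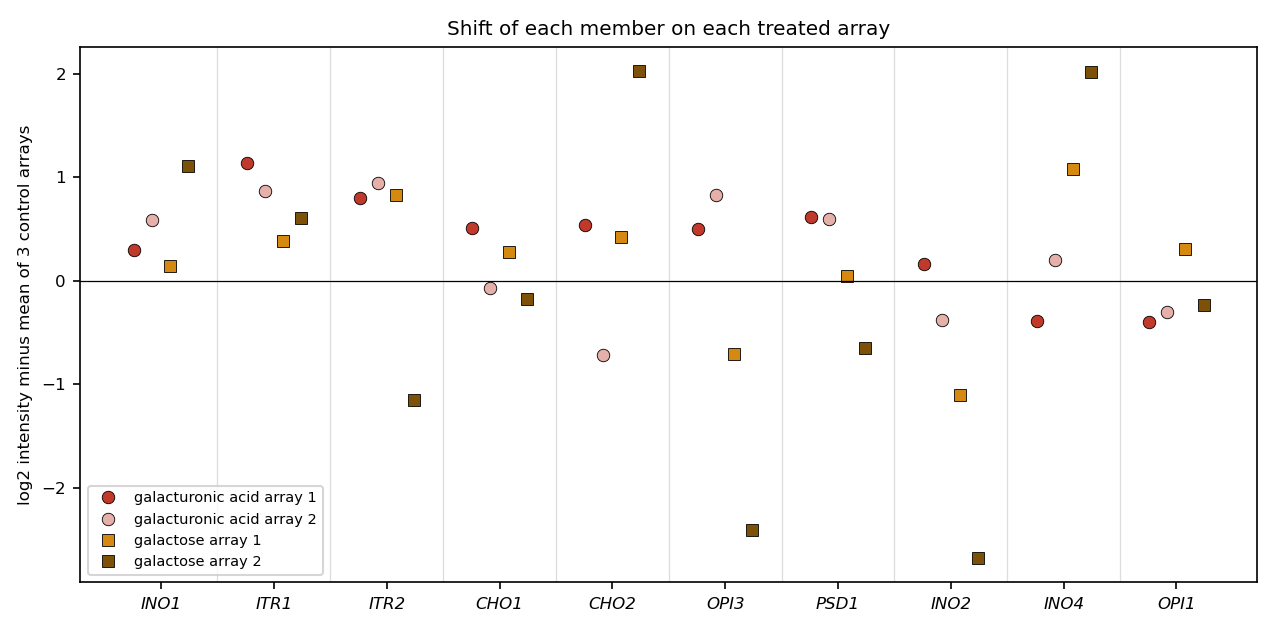
Log2 intensity of each gene on each galacturonic acid and galactose array, less the mean of the 3 control arrays. Galactose array 2 shows the widest shifts, from -2.68 for INO2 to 2.02 for CHO2, and the galacturonic acid arrays stay between -0.71 (CHO2) and 1.14 (ITR1).

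Set directly against galactose, galacturonic acid gave 2 calls among the 10 genes, where 13.1% of all genes tested passed. At an unadjusted p under 0.05 it was 4 of 10 against 36.4%, and the arrays did not overlap for 6 of 10 against 63.7%. OPI3 was higher with galacturonic acid, at 968 ± 154 against 243 ± 183 with galactose (SD, n = 2 each), a log2 difference of 2.22 ± 0.58 (SE, limma adjusted p = 0.0425). INO4 was lower, at 28.7 ± 8.13 against 92.3 ± 41.1 (SD, n = 2 each), by a log2 difference of -1.64 ± 0.43 (SE, limma adjusted p = 0.0437). The groups did not overlap for either gene. The INO4 size depends on the floor, with readings of 22.9 and 34.4 with galacturonic acid, and was -0.81 with the highest floor tried. The OPI3 call was lost under 10 of 18 alternatives and the INO4 call under 12 of 17. Without galactose array 2 the differences were 1.37 for OPI3 and -1.17 for INO4, with adjusted p of 0.111 and 0.118. When only these 4 arrays were fitted with limma, neither gene passed and 0 genes of the whole table did, against 1250 at an unadjusted p under 0.05. This comparison uses the same galacturonic acid and galactose arrays as the other comparisons and adds no new sample.

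The other 8 genes did not pass between galacturonic acid and galactose. INO2 was at 1.78 (95% interval 0.34 to 3.23, adjusted p = 0.0842) and CHO2 at -1.31 (adjusted p = 0.137). ITR2 was at 1.03, PSD1 at 0.90, ITR1 at 0.51, CHO1 at 0.17, INO1 at -0.18 and OPI1 at -0.39. For ITR1 the interval was -0.27 to 1.28, so a higher level than with galactose was not shown, although both galacturonic acid arrays read above both galactose arrays.

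The control arrays differed among themselves in a way that many members shared. Control array 1 read highest and control array 3 lowest for 7 of 10 genes (INO1, ITR1, ITR2, CHO2, OPI3, PSD1 and INO4), against 15.9% of all genes tested. The gap between the highest and lowest control array was 2.41-fold for ITR2, 2.19-fold for PSD1, 1.96-fold for OPI3, 1.63-fold for ITR1, 1.56-fold for INO4, 1.49-fold for INO1 and 1.18-fold for CHO2. INO2, OPI1 and CHO1 did not follow this order. INO2 was lowest on control array 1, OPI1 was highest on control array 3, and CHO1 was highest on control array 2. For INO1, OPI3 and PSD1, control array 1 alone read close to or above a galacturonic acid array.

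INO1 is a common readout of inositol control, and the 5 genes with the most similar values over the 7 arrays were not members of the group. By Pearson's r of log2 intensity over 7 arrays, given as a measure of likeness among 5219 other genes, the nearest were MDM35 (0.985), GCY1 (0.979), IAH1 (0.977), ATP18 (0.976) and the small nucleolar RNA gene SNR11 (0.970). MDM35 encodes an intermembrane space protein of mitochondria that works in phospholipid transfer, GCY1 a glycerol dehydrogenase, IAH1 an isoamyl acetate esterase and ATP18 a subunit of ATP synthase. All 5 read highest on galactose array 2. MDM35 was at 1365 there, against 617 on galactose array 1 and 673, 519 and 384 in control. SNR11 read 51.0 there and 12.4 to 25.5 on the other arrays, close to the floor. The 5 genes share with INO1 the highest galactose array and the control order, which largely follows from picking them by r over these same arrays. Their lengths of 180 to 939 bases are shorter than the 1602 bases of INO1. The lengths of all genes tested were not compared, and a part of length in this likeness was not tested. Among the members, INO4 (0.74), ITR1 (0.64) and CHO2 (0.62) were the most like INO1, at ranks 382, 718 and 789. This order rested on the galactose arrays. Over the 5 galacturonic acid and control arrays, few for a correlation, r with INO1 was 0.93 for OPI3, 0.93 for PSD1, 0.92 for ITR2, 0.85 for ITR1, 0.53 for INO4 and -0.27 for CHO2.

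**Figure D4:**
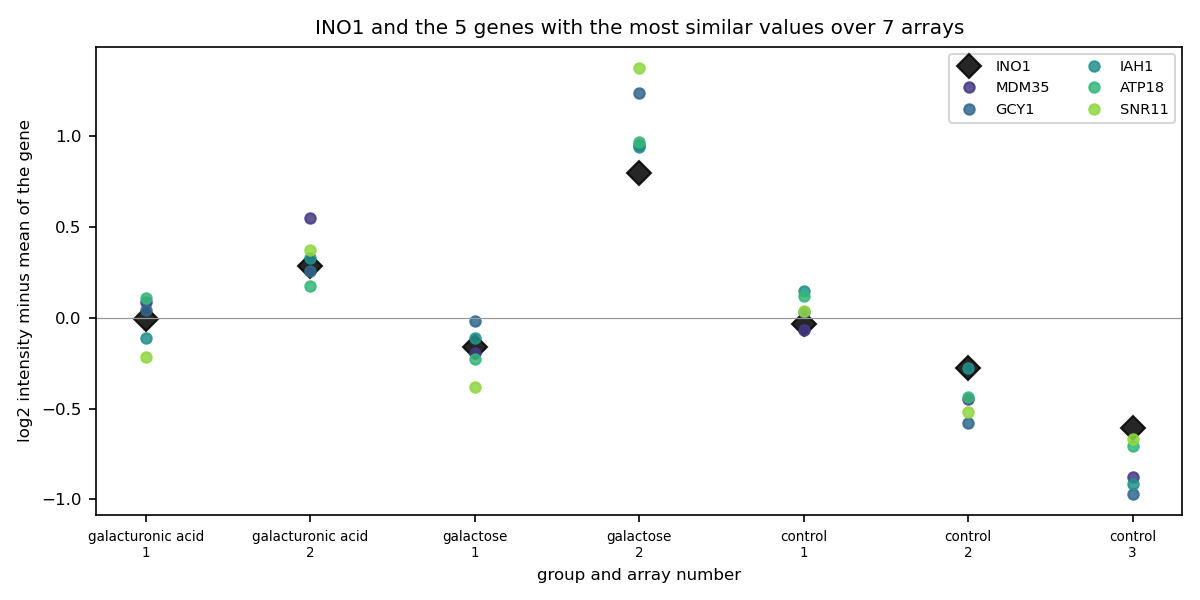
Log2 intensity of INO1 (diamonds) and of the 5 genes with the highest Pearson's r to it (circles) on each array, each gene less its own mean. All 6 genes are highest on galactose array 2 and lowest on control array 3.

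The rest of lipid metabolism was followed through 9 further lists of 68 genes, of which 67 were tested and GIT1, a glycerophosphoinositol transporter, lay at the floor. With galacturonic acid 1 of 67 fell and 0 rose against control, and 7 passed at an unadjusted p under 0.05, where 2.32% and 12.5% of all genes tested did so. The one that fell was PLB2 (phospholipase B), which read 91.0 and 101 with galacturonic acid, 303 and 270.1 with galactose, and 478, 375 and 255 in control. Both galacturonic acid arrays were well below all others. The log2 difference from control was -1.89 ± 0.34 (SE, limma adjusted p = 0.0335), lost under 6 of 18 alternatives, among them leaving out any 1 control or galacturonic acid array. The median difference over the 67 genes was 0.15, against -0.01 over all genes tested.

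Among the lists nearest to the 10 genes none had a call with galacturonic acid. In the remaining steps of the de novo route (0 of 9), SLC1, an acyltransferase that makes phosphatidic acid, had the smallest p. It read 448 and 450.4 with galacturonic acid against 223, 209 and 265 in control, a log2 difference of 0.96 ± 0.29 (SE, limma adjusted p = 0.188), and passed under 4 of 18 alternatives. In the methyl donor cycle (0 of 5), SAM2, a synthase of the S-adenosylmethionine that Cho2 and Opi3 use, was at 0.99 ± 0.29 (adjusted p = 0.164). All 5 genes of that list were above 0, with a median of 0.41. In the Kennedy pathway, which makes phosphatidylcholine from choline (0 of 7), the choline kinase CKI1 was at 0.32 (adjusted p = 0.827) and the list median at 0.06.

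In the phosphatidate phosphatases and kinase (0 of 7), the diacylglycerol kinase DGK1 was at 0.72 (adjusted p = 0.540). In inositol recycling and phosphates (0 of 8), the inositol monophosphatase INM1 was at 0.59 (adjusted p = 0.542), or 0.037 with a floor of 50. In fatty acid synthesis (0 of 7) the elongase ELO1 was at 0.61 (adjusted p = 0.539). Among the inositol sphingolipid genes (0 of 8), CSH1 was at -0.89 (adjusted p = 0.245), or -0.32 with a floor of 50. CSH1 encodes a subunit of an enzyme that adds mannose to inositol phosphorylceramide. The medians of these 4 lists were 0.05, 0.04, 0.06 and 0.0026. Among 10 genes that act on or with Opi1, Ino2 and Ino4, HAC1, the transcription factor of the unfolded protein response, had the largest difference, 1.92 ± 0.42 (SE, adjusted p = 0.064).

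With galactose, 2 of the 67 genes rose and 1 fell against control, where 9.06% of all genes tested passed. INM1 and the inositol hexakisphosphate kinase gene KCS1 rose, by log2 differences of 1.46 ± 0.34 and 1.36 ± 0.34 (SE, limma adjusted p = 0.0395 and 0.0468), and these calls were lost under 11 of 17 and 12 of 18 alternatives. The size for INM1 depends on the floor, at 0.85 with a floor of 50. KCS1 read 213 and 317 with galactose, against 96.4, 85.3 and 126 in control. HAC1 fell: it was at 1.7 and 1.0 with galactose, below the floor, against 544, 258 and 599 in control, at least 36.5-fold lower (adjusted p = 0.000606). This bound is from 1 of 5 HAC1 probe sets, and with the mean of all 5 the log2 difference was -2.26 (adjusted p = 0.0165). On the same 2 arrays the 3'/5' ratio of ACT1 was raised, and that of SPT15 was raised on galactose array 2 alone. The part of RNA quality in the HAC1 reading was not tested.

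Between galacturonic acid and galactose, 3 of the 67 genes were higher with galacturonic acid and 4 lower, where 13.1% of all genes tested passed. SCT1, a glycerol 3-phosphate acyltransferase of the de novo route, and the phospholipase PLB1 were higher, by 2.21 and 2.87 (adjusted p = 0.0459 and 0.0481), as was HAC1, at least 138-fold on the same probe set (adjusted p = 0.000376), or by 3.97 on the log2 scale with the mean of all 5 (adjusted p = 0.00341). The 138-fold bound is for that probe set alone, and the 5 averaged include a probe set below the floor on every array. The part of RNA quality in these galactose readings was not tested. The SCT1 call was lost under 9 of 17 alternatives and the PLB1 call under 10 of 18. Without galactose array 2 the differences were 1.38 for SCT1 and 1.40 for PLB1, and without galactose array 1 they were 3.05 and 4.33. SCT1 read 105 and 94.7 with galacturonic acid against 38.4 and 10.3 with galactose, the last below the floor. With a floor of 50 its difference was 0.99. KCS1, PLB2, SPO1 and CSH1 were lower, with log2 differences of -1.79, -1.58, -1.72 and -1.60 and adjusted p of 0.0256, 0.0356, 0.0198 and 0.0252. These calls were lost under 7 of 18, 10 of 18, 7 of 17 and 7 of 17 alternatives. With a floor of 50 SPO1 was at -0.16 and CSH1 at -1.02.

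**Figure D5:**
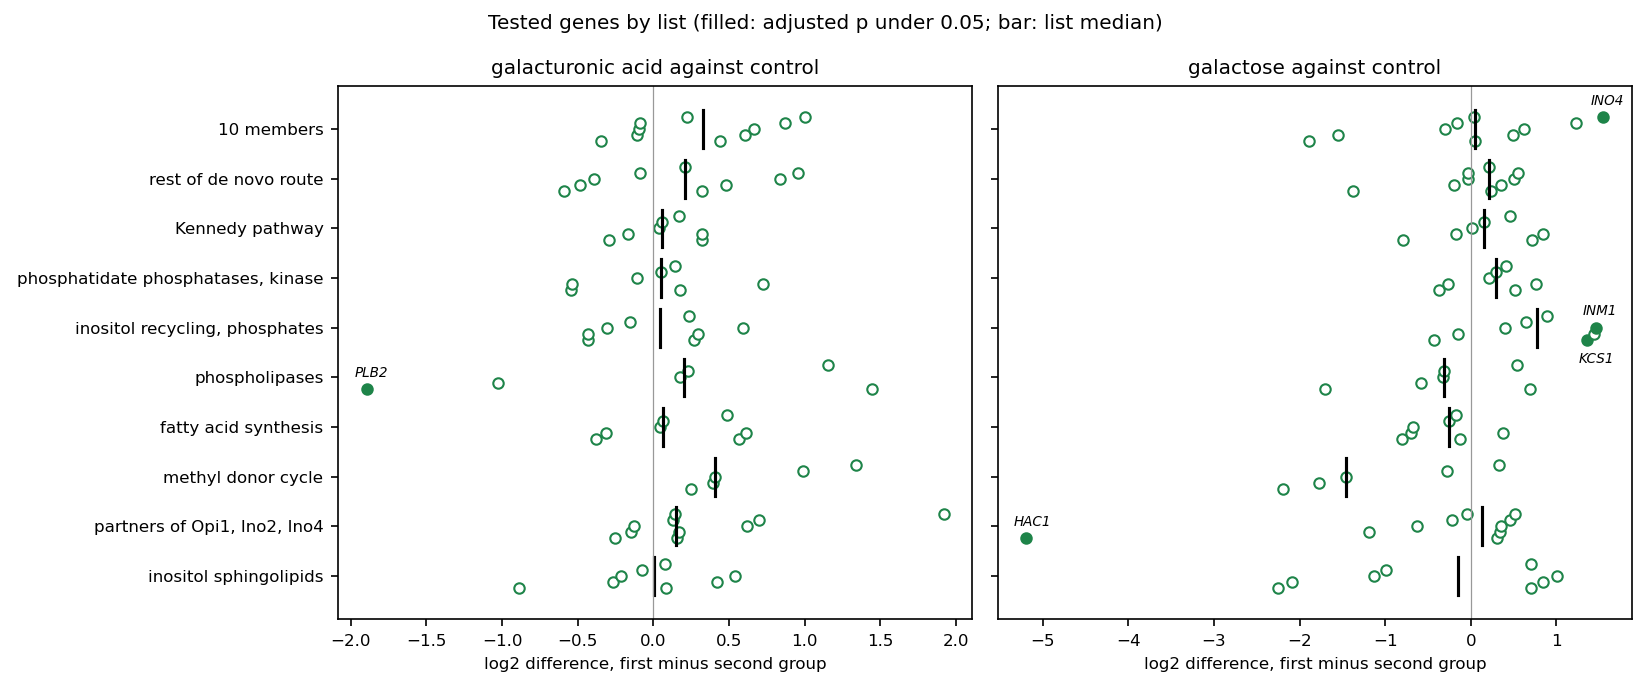
Log2 difference of each tested gene (circles, filled for an adjusted p under 0.05) in the 10 members and in 9 further lists of lipid genes, with a bar at the median of each list. PLB2 (-1.89) is the only filled point for galacturonic acid against control, and INO4, INM1, KCS1 and HAC1 are filled for galactose against control.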

How the data were processed

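The authors deposited 1 linear intensity for each probe set and array, with a mean near 150.1 on each array after the highest and lowest 2% are left out, as read from the values. GCOS 1.2 is named in the submitters' processing notes, and the signal algorithm is not given in the sources used here. Of 9335 probe sets, 6504 have 1 gene in the platform annotation, and gene IDs paired each of them with a RefSeq gene (assembly R64). No build is named for the files, so no coordinates are printed.

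Per gene the probe set with the highest mean was used. Intensities under 12 were set to 12 (the floor) before log2, and 5220 of 5656 genes above it on at least 2 arrays were tested. One linear model over 7 arrays with a mean per group was fitted with limma 3.58.1 in R 4.3.3 (lmFit, eBayes with trend, 4 residual degrees of freedom), with Benjamini-Hochberg adjustment over all genes tested and a threshold of 0.05. The fit takes 1 spread per gene for all groups. It was run on simulated data with 1 spread per group for all genes and rises only in genes well above the floor. That run did not cover falls or changes near the floor. Replicate numbers follow deposit order and only name an array.

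The members and lists were chosen with earlier results of these data known. Genes named were all members, of each further list at most 2 that rose and 2 that fell per comparison or else the smallest p with galacturonic acid, and the 5 genes most like INO1. The number of arrays limits the precision.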

Additional observations from a re-analysis of the deposited data

How the results depend on the processing

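The counts of genes past the threshold depended on the filter, the weights and the arrays fitted. For galacturonic acid against control, 121 genes passed, against 58 with no filter on low genes, 77 with the filter at the median level, 774 with array weights, 256 with only the 2 groups compared and 1 to 287 without one array. Among the 10 members the count was 0 throughout, except 1 (ITR1) with array weights. For galactose against control, 473 passed, against 178, 120, 16 and 38 in the same order and 21 to 2145 without one array. The 1 member passing was INO4, but INO2 in its place under quantile normalisation and 75th percentile scaling. The count became 0 with a floor of 1 or 50, no filter, the median filter, array weights and only the 2 groups, and 0 to 5 without one array (5 without galactose array 1). For galacturonic acid against galactose, 686 passed, against 244, 153, 135 and 0 (with limma, 1250 at an unadjusted p under 0.05) and 4 to 2327 without one array. The 2 members passing became 1 under quantile normalisation, 75th percentile scaling or a floor of 50, and 0 with no filter, the median filter, array weights or only the 2 groups, and 0 to 5 without one array. Where 1 array of a pair was left out, the fit took the spread of the remaining one from the other groups. Without galactose array 1 the calls rested on galactose array 2, which had the highest 3'/5' ratios. The median filter left INO2 and INO4 untested.

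Among the 10 members, signs turned only for differences that had not passed. Without one array, each in turn, the differences for galacturonic acid against control ran from -0.39 to 0.20 for INO4, -0.54 to 0.16 for INO2, -0.069 to 0.51 for CHO1 and -0.71 to 0.54 for CHO2. For galactose against control they ran from -0.23 to 0.31 for OPI1, -0.18 to 0.32 for CHO1, -1.15 to 0.83 for ITR2 and -0.65 to 0.047 for PSD1. For galacturonic acid against galactose they ran from -0.12 to 0.46 for CHO1 and -0.66 to 0.30 for INO1. In the galactose comparison with control, OPI1 also turned to -0.074 under quantile normalisation and -0.15 under 75th percentile scaling, and CHO1 to -0.14 under that scaling and -0.080 with array weights. The cause was not tested. No paired analysis was possible because the labels give the arrays no replicate numbers that could pair them across groups.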

Other observations

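HAC1 was read by 5 probe sets, which were compared after its values had been seen. On 4 of 5 both galacturonic acid arrays lay above all 3 control arrays, and the fifth was below the floor on every array. Over all genes tested, 41.1% did not overlap between these groups, in either direction. The probe set used above read 1990 and 1380.0 with galacturonic acid against 544, 258 and 599 in control. With galacturonic acid the other 3 averaged 839 ± 103, 422 ± 59.7 and 167 ± 18.5 over both arrays (SD). The control arrays averaged 244 ± 49.6, 86.3 ± 20.7 and 29.3 ± 9.72 on these 3 (SD over 3 arrays). The galactose arrays read the 4 probe sets at 1.7 and 1.0, 110.0 and 19.5, 2.2 and 0.9, and 19.3 and 5.7, so 1 of the 4 was above the floor on both. On the floored values the 4 probe sets were 3.48-fold to 5.89-fold higher with galacturonic acid than in control. These probe sets share their arrays and their transcript, so they are not replicates, and the fit of 1 probe set for the gene had an adjusted p of 0.064.

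The phospholipase B genes had differences of opposite sign with galacturonic acid. PLB2 fell, as given above, while PLB3, named after its values were seen, read 166 and 176 with galacturonic acid against 73.2, 67.8 and 49.7 in control. Its log2 difference was 1.44 ± 0.47 (SE) and did not pass (limma adjusted p = 0.215), although the groups did not overlap. PLB1 was at 1.16 ± 0.72 (SE, limma adjusted p = 0.576).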
